A study of Mus musculus with 2 samples.

Results

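Class I gammaretroviral elements and VL30 are endogenous retroviruses, copies of old retroviral infections that are inherited with the mouse genome. They were described here through 20 of the 952 repeat types counted in the ChIP-seq tables, chosen by a rule on names. It took entries starting with MMERGLN, MuLV, MuRRS, LTRIS or MMVL30, and those starting with RLTR1, RLTR4 or RLTR6 where no further digit follows. The rule was set with earlier results of these data known. The 20 entries were the same in both sequencing lanes, and all of them had at least 100 input reads, the minimum used throughout. The data come from 1 H3.3S31ph ChIP library and 1 input library, the latter sequenced without immunoprecipitation. Both libraries came from wild-type 129S1/SvImJ mouse ES cells that had been kept in serum and leukemia inhibitory factor, blocked with 9 µM of the CDK1 inhibitor RO-3306 over 12 hours, washed, and harvested 11 hours afterwards as mitotic cells. The tables hold no genes, so the cell type and the mitotic state were not checked against markers, and with 1 sample in each group no difference below has a replicate check.

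A complete element of this kind has an internal sequence, which in an intact virus carries the gag, pol and env genes, between a pair of long terminal repeats (LTRs) that hold the promoter, enhancer and polyadenylation signal. Recombination between the LTRs of one copy removes the internal sequence and leaves a solo LTR, so LTR entries also collect reads from copies with no internal part. In mouse ES cells such elements are repressed by KRAB zinc finger proteins with TRIM28 and the H3K9 methyltransferase SETDB1, and the histone variant H3.3 is deposited at silenced retroviral sequence by ATRX and DAXX. Serine 31, which canonical H3 lacks, is phosphorylated mainly in mitosis.

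The entries below are ordered by 4 family names. VL30 elements (RLTR6 and MMVL30 entries) are virus-like sequences that have lost the ability to make viral proteins and are packaged into the particles of other murine retroviruses. MuLV entries (MuLV and RLTR4) belong to the murine leukemia viruses, which include copies able to form infectious virus. MuRRS (with the LTRIS LTRs) stands for murine retrovirus-related sequences. GLN elements (MMERGLN and RLTR1 entries) are named after the glutamine transfer RNA that primes their reverse transcription. The assignment used names only. Related entries share sequence, and the sources used here do not say how a read matching several entries was assigned, so entries of one family are not independent measurements.

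The tables held 12235477 ChIP reads and 8856751 input reads, and the 20 entries took 189233 and 112216 of them. Their share was 1.55% (95% exact binomial interval 1.54 to 1.55) of ChIP repeat reads against 1.27% (1.26 to 1.27) of input repeat reads. A ratio below is such a ChIP share divided by the input share of the same entry or family, and each is followed by its 95% interval. The intervals cover counting error only and treat each read as independent. Reads without molecular identifiers are not independent molecules, so the intervals may be too narrow. For the 20 entries together the ratio was 1.22 (1.21 to 1.23). Shares sum to a fixed total, and the median of the 704 repeat types with enough reads had a ratio of 0.805, so each entry was also set against this median repeat.

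All 20 entries lay above the median repeat, by 1.05 to 1.94 times, and the interval of 1 of them, RLTR1C, included it. A ratio at least 25% above that of the median repeat was found in 14 of 20 entries and in 11.1% of all 704 repeat types. At least 1.5 times the median repeat was reached by 7 of 20 entries, against 4.69% of all types. None of the 20 lay at or below 0.8 times the median repeat, where 2.41% of all types lay. The median entry had a ratio of 1.12, a log2 ratio of 0.17 against -0.31 for all types. Against a ratio of 1 itself, 12 of 20 entries had an interval above it, where 7.81% of all types did, 5 had one below it, where 79.5% of all types did, and 3 had one across it. This split depends on the scale between the libraries, while the comparison with the median repeat does not.

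**Figure D1:**
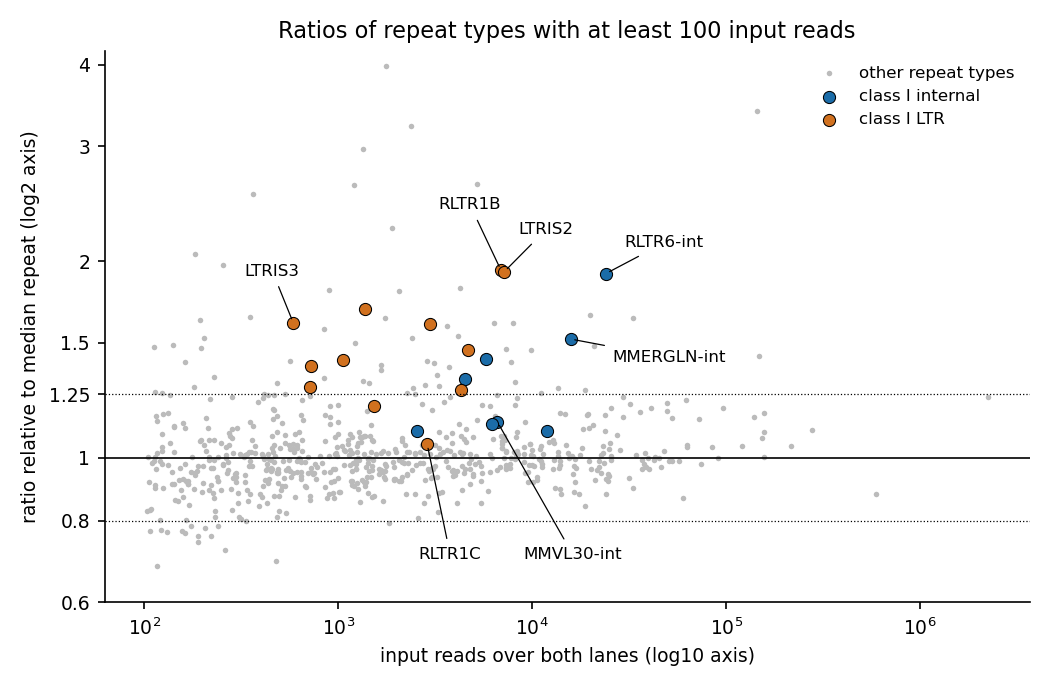
Ratio of ChIP share to input share relative to the median repeat (log2 axis) against input reads over both lanes (log10 axis), for the 704 repeat types with at least 100 input reads. Dotted lines mark a level 25% above the median repeat and 0.8 times it, 1 type lies above and 1 below the plotted range, and the 20 gammaretroviral and VL30 entries (large points) all lie above the line at 1.

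A group of 3 entries from 3 different families stood at the top and could not be told apart by counting. RLTR1B, an LTR of the GLN group, had a ratio of 1.56 (1.52 to 1.60). LTRIS2, an LTR of the MuRRS group, had 1.55 (1.51 to 1.60). RLTR6-int, an internal sequence of the VL30 group, had 1.54 (1.52 to 1.56). They took ranks 12, 13 and 14 among the 704 types. RLTR1 followed at 1.36 (1.27 to 1.45), lower than RLTR6-int by a factor of 1.14 (1.06 to 1.21). Of the 19 neighbouring pairs in the whole order, 1 more was separable, RLTR1D over MMERGLN-int at 1.05 (1.004 to 1.11). The other 17, those within the top group included, were not separable, and the ratios fell gradually to RLTR1C.

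**Figure D2:**
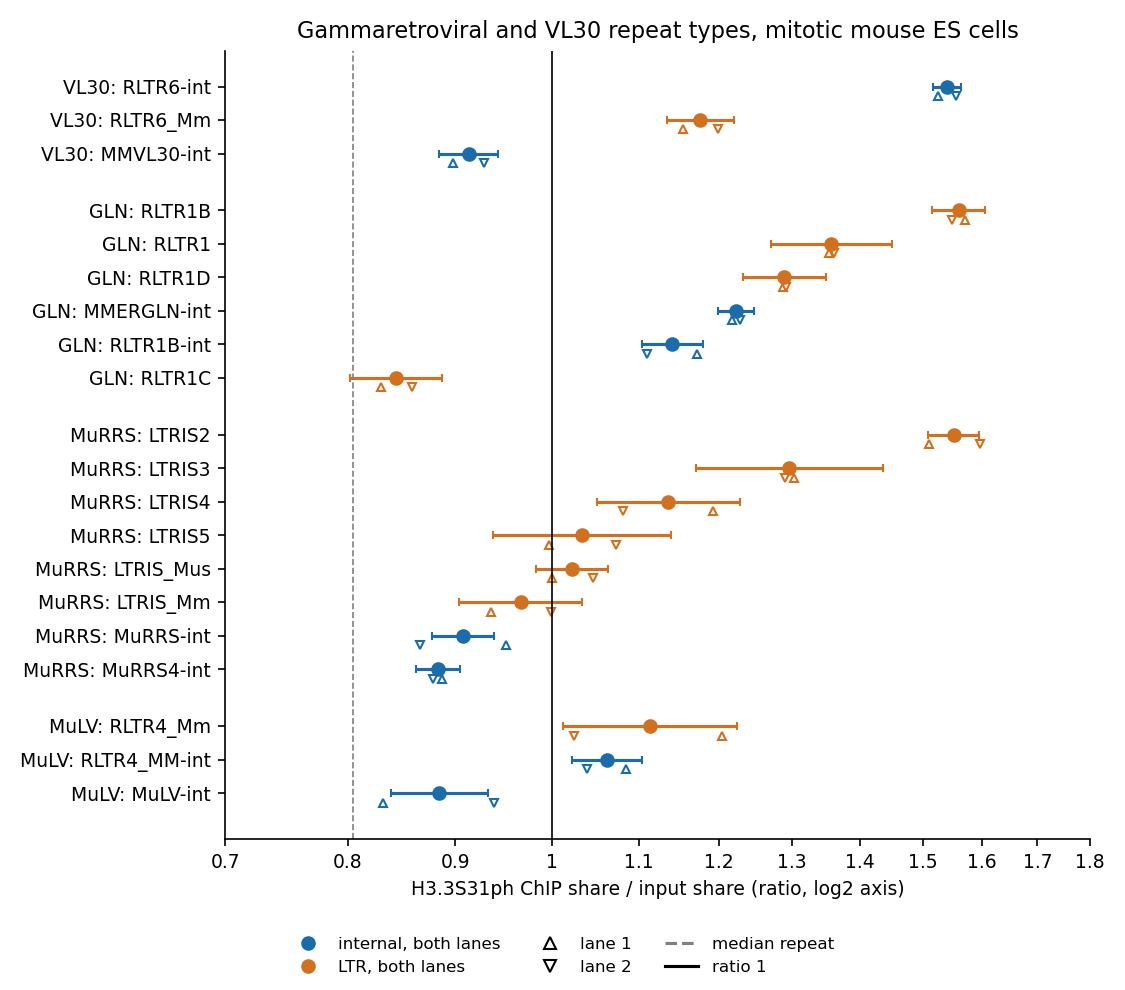
Ratio of ChIP share to input share (log2 axis) of each of the 20 entries, grouped by family, with its 95% interval of counting error and the value in each lane (open triangles). The entries run from 0.844 for RLTR1C to 1.56 for RLTR1B, and LTR and internal entries are interleaved in the GLN group but not in the MuRRS group.

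In the VL30 family the 2 internal entries lay far apart. RLTR6-int had 25777 ChIP and 12163 input reads in lane 1, and 25287 and 11830 in lane 2. MMVL30-int had 4233 and 3394 reads in lane 1, and 4109 and 3219 in lane 2. RLTR6-int thus had more than 2 ChIP reads for each input read in both lanes, and MMVL30-int had fewer than 1.38, the mean of all repeat reads. The ratio of MMVL30-int was 0.913 (0.884 to 0.943), and RLTR6-int exceeded it 1.69-fold (1.63 to 1.749). The LTR of the family, RLTR6_Mm, stood between them at 1.18 (1.13 to 1.22). It was 1.29-fold (1.23 to 1.35) above MMVL30-int and RLTR6-int was 1.31-fold (1.26 to 1.36) above it. Reads summed over the family gave 1.37 (1.36 to 1.39), the highest family value, and RLTR6-int held 76.2% of those ChIP reads and 68.0% of the input reads.

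In the GLN family the LTR types differed more from one another than the internal entries did. RLTR1B had 7605 ChIP and 3485 input reads in lane 1, and 7257 and 3413 in lane 2. RLTR1C, at the other end, had 1673 and 1452 reads in lane 1, and 1679 and 1424 in lane 2. Both lanes gave the same order, and the ratio of RLTR1B exceeded that of RLTR1C, at 0.844 (0.802 to 0.887), by a factor of 1.85 (1.745 to 1.96). RLTR1 and RLTR1D, at 1.29 (1.23 to 1.35), lay between them and were not separable from each other, with a factor of 1.05 (0.972 to 1.14). The internal sequence MMERGLN-int had 1.22 (1.199 to 1.247), and RLTR1B-int had 1.14 (1.10 to 1.18). RLTR1B-int was lower than the LTR whose name it shares, RLTR1B, by a factor of 1.37 (1.31 to 1.43). Summed over its 6 entries the family had a ratio of 1.255 (1.24 to 1.27).

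The MuRRS family held the widest set of LTR types, and its internal entries lay below all of them. LTRIS2 had 7780 ChIP and 3710 input reads in lane 1, and 7630 and 3480 in lane 2. Below it the LTR ratios were 1.30 (1.17 to 1.44) for LTRIS3, 1.14 (1.05 to 1.23) for LTRIS4, 1.03 (0.938 to 1.14) for LTRIS5, 1.02 (0.983 to 1.06) for LTRIS_Mus and 0.967 (0.904 to 1.03) for LTRIS_Mm. The last 3 were not separable from one another or from 1. MuRRS4-int, the most abundant internal entry, had 7341 ChIP and 5956 input reads in lane 1, and 7205 and 5969 in lane 2, a ratio of 0.883 (0.862 to 0.905). MuRRS-int had 0.908 (0.878 to 0.939), which was not separable from MuRRS4-int. Of 12 pairs of an LTR and an internal entry, the LTR was higher beyond counting error in 11, and the exception was LTRIS_Mm against MuRRS-int at 1.06 (0.989 to 1.15). The family as a whole had a ratio of 1.07 (1.06 to 1.09).

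The MuLV family lay nearest to the input level. RLTR4_Mm, its LTR, had 592 ChIP and 354 input reads in lane 1, and 521 and 370 in lane 2. This was one of the entries with the fewest reads, with a ratio of 1.11 (1.01 to 1.22) in the sum, 1.204 (1.05 to 1.38) in lane 1 and 1.02 (0.895 to 1.17) in lane 2. The internal sequence RLTR4_MM-int had 1.06 (1.02 to 1.10), not separable from RLTR4_Mm at a factor of 1.05 (0.947 to 1.16). MuLV-int, the other internal entry, had 0.884 (0.839 to 0.932) and was lower than RLTR4_MM-int by a factor of 1.201 (1.13 to 1.28). The lanes of MuLV-int differed, at 0.831 (0.771 to 0.897) in lane 1 and 0.938 (0.871 to 1.01) in lane 2. The whole family had a ratio of 1.01 (0.979 to 1.04), which is 1.253 times the median repeat.

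Across families, internal sequence and LTR did not stand in one fixed order. In VL30 the summed internal ratio was 1.19 times (1.15 to 1.24) the LTR ratio. MuRRS went the other way, with an internal ratio 0.695 times (0.675 to 0.714) that of its LTRs, as did GLN at 0.898 (0.874 to 0.922). MuLV was also below 1 at 0.897 (0.813 to 0.989), but its lanes gave 0.825 (0.718 to 0.947) and 0.979 (0.851 to 1.13), and the second interval included 1. The VL30 value exceeded that of MuRRS by a factor of 1.72 (1.64 to 1.805) and that of GLN by 1.33 (1.27 to 1.39), whereas MuLV and GLN were not separable at 0.999 (0.902 to 1.11). These comparisons do not depend on the scale between the libraries.

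**Figure D3:**
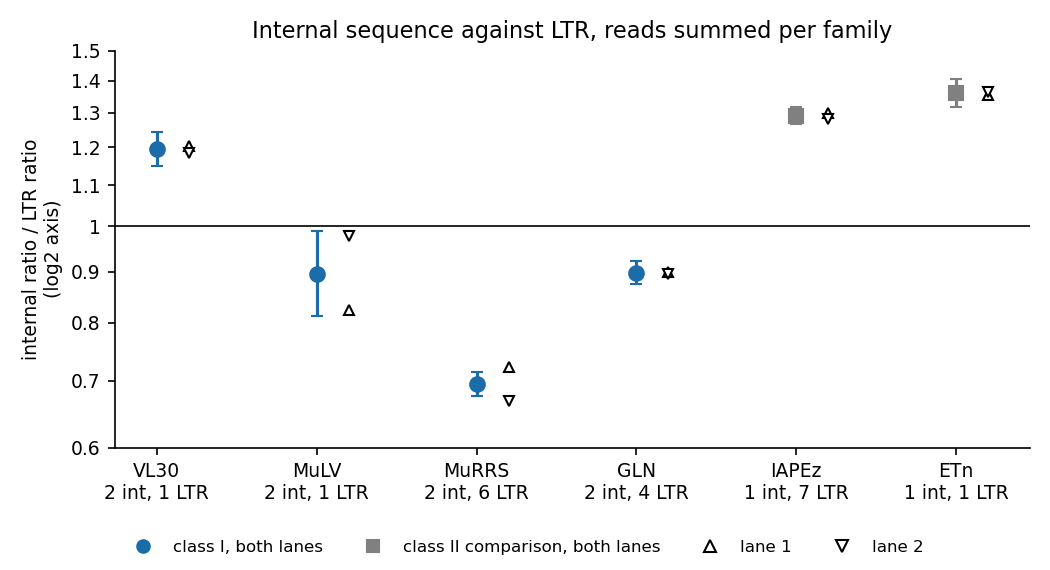
Summed ratio of the internal entries divided by that of the LTR entries (log2 axis) for the 4 class I families and 2 class II families, with 95% intervals of counting error and lane values (open triangles). VL30 lies above 1 with IAPEz and ETn, while GLN, MuLV and MuRRS lie below it, MuRRS lowest at 0.695.

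Single entries set some of these family values. Without RLTR6-int, the VL30 internal ratio, now that of MMVL30-int alone, was lower than the LTR ratio, at a log2 value of -0.36 in place of 0.26. Without RLTR1B, the GLN log2 value changed from -0.16 to 0.094, so the summed direction of GLN rested on that LTR. Entry by entry, the LTR of GLN was higher beyond counting error in 6 of 8 pairs with an internal entry, RLTR1 and RLTR1D included, and lower in the 2 pairs with RLTR1C. MuRRS kept its direction without LTRIS2, at -0.23 in place of -0.53. Leaving out the most abundant entry was chosen after seeing the data.

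Class II elements, the retroviruses of betaretroviral type in the mouse genome, served as comparison. The internal sequence of the intracisternal A particle, IAPEz-int, had a ratio 1.29 times (1.27 to 1.32) that of the 7 IAPLTR entries summed. MMETn-int of the early transposons was 1.36 times (1.32 to 1.404) its LTR RLTRETN_Mm. The IAPLTR entries ranged from 1.00 (0.909 to 1.10) for IAPLTR3 to 3.20 (3.04 to 3.37) for IAPLTR1a_Mm, which lay above IAPEz-int. Against the 5 IAPLTR1 and IAPLTR2 entries alone, IAPEz-int was 1.18 times (1.16 to 1.21) as high. These IAPLTR entries were singled out, and the smaller set formed, after their values were seen. Relative to ETn, VL30 was lower by a factor of 0.879 (0.836 to 0.924). Relative to IAPEz it was lower with all 7 LTR entries, at 0.925 (0.886 to 0.967), but not separable with the 5, at 1.01 (0.968 to 1.06). MuRRS, at 0.538 (0.520 to 0.556) times IAPEz with 7 LTR entries and 0.511 (0.490 to 0.533) times ETn, lay furthest from both. No entry name started with MERVL, so the MT2 LTRs were not compared with an internal sequence. By level, 14 of 15 IAP entries, 1 of 2 ETn entries and 0 of 5 MT2 entries lay at least 25% above the median repeat. Of the other RLTR entries with a number in the name, 21 of 92 did. The highest ratio among the 20 entries described here, 1.56, was below that of IAPEz-int at 2.73 (2.71 to 2.75).

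The 20 entries had 586 to 23993 input reads, and Spearman's rho between input reads and ratio was 0.155 across the 20 entries, all from the same 2 libraries. By kind, 10 of 12 LTR entries and 4 of 8 internal entries lay at least 25% above the median repeat. The LTR entries had a median ratio of 1.16 and a range from 0.844 to 1.56, and the internal entries had a median of 0.988 and a range from 0.883 to 1.54, so both kinds spanned nearly the whole range. Within families, 41 of 49 pairs of entries were separable by intervals that are not adjusted for the number of pairs.

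Most of the additional ChIP reads came from few entries. Had every entry had the ChIP reads per input read of the median repeat, the 20 entries would have held 124774 ChIP reads, 64459 fewer than counted. RLTR6-int accounted for 37.8% of this difference while holding 21.4% of the input reads of the 20 entries. LTRIS2 accounted for 11.5% with 6.41% of the input reads, and RLTR1B for 11.2% with 6.15%. MMERGLN-int accounted for 14.1%, the same as its share of the input reads, 14.1%. By family, VL30 held 43.1%, GLN 34.4%, MuRRS 19.1% and MuLV 3.39%. In GLN the difference was split between internal entries and LTRs, at 18.3% and 16.1% of the total, while in MuRRS the LTRs held 15.7% and the internal entries 3.36%.

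**Figure D4:**
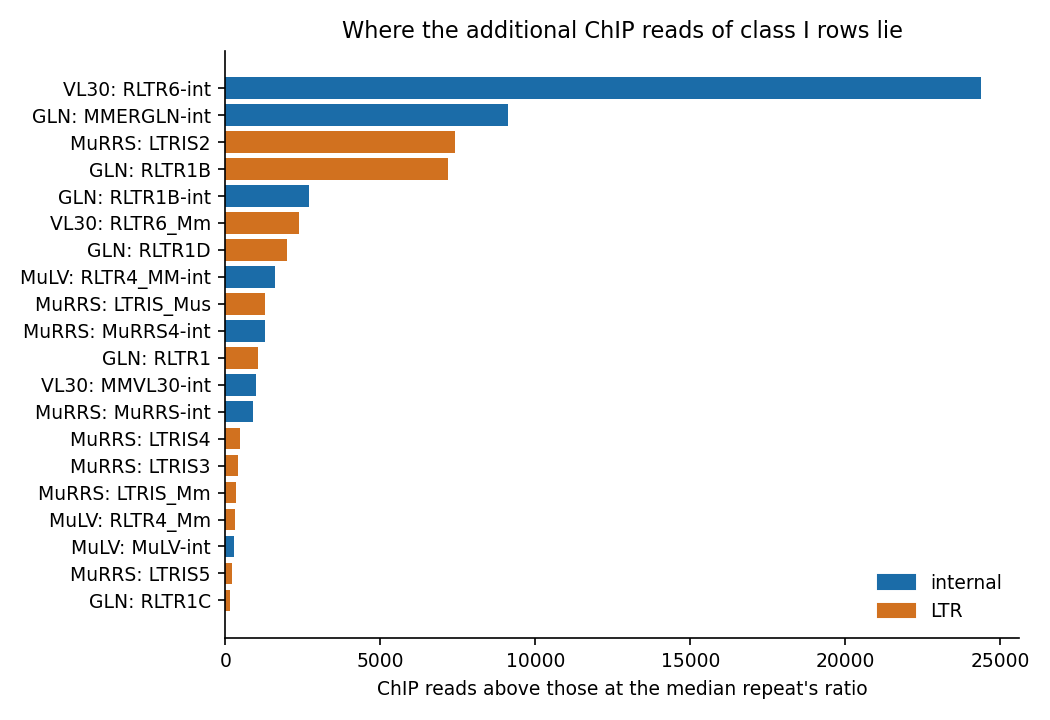
ChIP reads of each entry above the number it would have at the ratio of the median repeat, with bars coloured by internal sequence or LTR. RLTR6-int stands at 24386 reads, MMERGLN-int at 9116, LTRIS2 at 7415 and RLTR1B at 7192, and the next entry, RLTR1B-int, at 2697.

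The lanes, which are repeat runs of the same libraries, gave close values. Between lanes, the median difference in log2 ratio was 0.059, and the widest, in RLTR4_Mm, was 0.23. In 2 of 20 entries the difference exceeded counting error, by intervals that are not adjusted for the number of entries. The same was not counted over all 704 types, so whether 2 of 20 is more than usual cannot be said. MuRRS-int had 0.951 (0.907 to 0.997) in lane 1 and 0.866 (0.826 to 0.909) in lane 2, and MuLV-int had 0.831 (0.771 to 0.897) and 0.938 (0.871 to 1.01). Both lanes placed 18 of 20 entries on the same side of a level 25% above the median repeat of that lane. At or above it were 12 entries in lane 1 and 14 in lane 2. For all 704 types this share was taken with the lanes summed only, at 11.1%. The authors' deposited log2 values stand on a scale that adds 0.17. Their 0 is therefore not a ratio of 1 here. In the authors' deposited table, the conservative log2 value was above 0 for 15 entries and below 0 for 2 in lane 1, where 15.5% of the 704 types were above and 51.7% below. In lane 2 of the authors' deposited table it was above 0 for 16 entries and below 0 for 0, against 15.2% and 50.7% of the types. The 2 below 0 in lane 1 were RLTR1C and MuLV-int, both at values near 0, -0.016 and -0.007 in the authors' deposited table.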

How the data were processed

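The authors deposited raw read counts per repeat type for ChIP and input, 1 table per lane, and, per the file headers, a log2 ratio with bounds and a conservative value. Bowtie 1.0.0 and the build mm9 are named, per the submitters' processing notes. For multiply matching or duplicate reads the treatment is not stated there. The lanes held 6204712 and 6030765 ChIP reads and 4467116 and 4389635 input reads.

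Lanes were summed. A ratio is scaled by the table totals and was given a 95% Clopper-Pearson interval, conditional on the sum of both counts. A ratio of 2 ratios has a 95% log-scale interval from counting variances. Calls used a level 25% above, or 0.8 times, the median of types with at least 100 input reads. An entry was internal where its name starts with MuLV, MuRRS or MMVL30, holds -int or ends in _I. IAPLTR entries of internal sequence were left out of the comparison. Every member could be named. Members, families and lists were chosen with earlier results of these data known. Alternatives were single lanes, 3 other scalings, other read minimums, 1 added read, a 1.5-fold threshold and other ways to combine entries. The computation was tested on simulated data (Python 3.11.15, SciPy 1.17.1). No consensus sequences of these repeats were used here.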

Additional observations from a re-analysis of the deposited data

How the results depend on the processing

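No paired analysis was possible because each group has 1 sample. The scale adds 1 constant to every log2 ratio, so calls against the median repeat and internal against LTR ratios cannot move with it. The median repeat set to 1 adds 0.31, table totals without the 5 most abundant repeats 0.20, and the scale recovered from the deposited log2 values 0.17. With the median repeat set to 1 the log2 ratios were 0.77 for VL30, 0.64 for GLN, 0.41 for MuRRS, 0.33 for MuLV and 0.48 for the median of the 20 entries. Without the 5 most abundant repeats they were 0.66, 0.53, 0.30, 0.21 and 0.37 in the same order, and on the deposited scale 0.63, 0.50, 0.27, 0.18 and 0.34. Some entries with an interval below 1 changed sign. With the median repeat set to 1, MMVL30-int stood at 0.18, MuRRS-int at 0.17, MuLV-int at 0.14, MuRRS4-int at 0.13 and RLTR1C at 0.068. Without the 5 most abundant repeats the first 4 stood at 0.072, 0.063, 0.025 and 0.023, and on the deposited scale MMVL30-int stood at 0.037 and MuRRS-int at 0.029. RLTR1C stayed below 0 on both of these scales, at -0.043 and -0.077, and on the deposited scale so did MuLV-int at -0.0090 and MuRRS4-int at -0.011. LTRIS_Mm, whose interval includes 1, moved from -0.049 to 0.26, 0.15 and 0.12. The count of 14 entries became 7 at 1.5-fold.

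The log2 internal against LTR ratios depended on how entries were combined. Taking the most abundant internal and LTR entries gave 0.39 for VL30, -0.81 for MuRRS and -0.35 for GLN, and taking medians gave 0.061 for VL30 and -0.28 for MuRRS. Without the most abundant LTR entry MuRRS was -0.23 and GLN 0.094. Without the most abundant internal entry VL30 was -0.36, MuLV -0.33 and GLN -0.23. With the IAPLTR1 and IAPLTR2 entries alone, an alternative added after seeing the data, IAPEz was 0.24 in place of 0.37. MuRRS was -0.47 in lane 1 and -0.58 in lane 2. The cause of these moves beyond the change of entries was not tested. Depth limits RLTR4_Mm, LTRIS3 and LTRIS5 most, with 586 to 724 input reads each.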
